A study of Homo sapiens with 14 samples.

Results

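The comparison described here sets MiaPaCa2 cells held for 9 h in EBSS against MiaPaCa2 cells held for 9 h in a condition that the labels call mock. It rests on 6 of the 14 arrays of the study, 3 in EBSS and 3 in mock, chosen by their titles. MiaPaCa2 is a human pancreatic cancer cell line. Before the incubation the cells received an siRNA, a short double-stranded RNA that triggers destruction of the matching mRNA, with INTERFERin as the carrier. The EBSS group holds 1 array each of cells given siRelA, siRelB and the scrambled control siRNA (siCtrl), and the mock group holds the same 3 transfections, so that each EBSS array has a mock partner with the same siRNA. EBSS is Earle's balanced salt solution, described in the labels as free of glucose, amino acids and growth factors. The labels do not say what the mock medium held. The other 8 arrays (the Nupr1 set: siNupr1 or siCtrl, unstarved at 0 h or kept 3, 6 or 9 h in EBSS) enter below as the nearest comparison and through the shared estimate of the spread. All samples come from 1 cell line, and separate cultures are not stated for the arrays, so every p-value measures the spread between arrays, which may be technical.

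As background, cells that lack amino acids activate the kinase GCN2, which slows translation and raises the transcription factor ATF4. ATF4 switches on genes for amino acid uptake and synthesis and a stress branch with DDIT3, TRIB3 and CHAC1. Loss of growth factors and amino acids also turns down mTORC1 signalling, which frees the TFE3 and TFEB factors that drive autophagy and lysosome genes. NF-kB is a family of dimeric transcription factors. The canonical branch works through RELA and NFKB1, and the alternative branch through RELB and NFKB2. The study asked whether RELA and RELB control different genes in nutrient-deprived cells.

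The silencing RNAs are shown because they define the 3 pairs, and both sequences are those the submitters list (5′ to 3′, without overhangs). They target RELA on chromosome 11 and RELB on chromosome 19.
siRelA: gaucaauggcuacacagg
siRelB: ggauuugccgaauuaacaa

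Values are log2 levels from which a difference of 1 is a doubling, and each gene's EBSS minus mock difference is the mean over the 3 pairs with its standard error (SE) from the fit. Values by array are given in the order siRelA, siRelB, siCtrl. Before the genes, the arrays themselves were checked. Over the 6 arrays the first principal component held 63.7% of the variance and set EBSS apart from mock, with scores of -31.3, -27.3 and -14.6 in EBSS and 19.1, 19.7 and 34.4 in mock. RELA had 6.56, 9.19 and 9.19 in EBSS, against 6.31, 8.70 and 8.67 in mock, so the siRelA arrays were the lowest in both media. RELB had 7.87, 6.73 and 8.41 in EBSS, against 6.93, 6.16 and 7.11 in mock, again with the lowest values on the arrays of its own siRNA. The epithelial markers KRT8 and KRT18 had medians of 12.79 and 13.02 over the 6 arrays. EPCAM and CDH1, which also define epithelium, were dim (medians of 3.63 and 4.74). Of 9 mesenchymal and fibroblast markers 4 were bright enough to test, and of these 1 fell and 0 rose. VIM (12.52) and COL1A2 (10.5) were brightest and DCN (2.98) and LUM (2.41) dimmest. The lowest difference of the tested 4 was -0.91, and COL1A2 ranged from 9.22 to 10.78 over the 6 arrays. The mean level of all 9 markers was 6.27 to 6.46 in EBSS and 6.36 to 6.38 in mock. Of 5 leukocyte markers 2 were bright enough. CD68 (8.42), also a general lysosomal protein, rose by 0.56, and CD14 (6.07) did not pass. PTPRC, which defines leukocytes, had 2.68. The mean level of all 5 markers was 5.41 to 5.58 in EBSS and 5.29 to 5.52 in mock. The 5 tested epithelial markers all rose, with mean levels over the 8 measured markers of 8.07 to 8.22 in EBSS and 7.81 to 7.85 in mock. Small RNA genes were low on the siRelA mock array, with a median of 6.69 against 6.98 and 6.83 on the other mock arrays. The siRelA array was also the lowest in EBSS, with 7.07 against 7.27 and 7.25.

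EBSS changed a large part of the measured transcriptome, and the large differences were mostly falls. Of 11026 tested genes, 2489 rose (22.6%) and 3233 fell (29.3%) at an adjusted p under 0.05 (limma, Benjamini-Hochberg), so that 43.5% of the calls were rises. Without any 1 array or pair, 1514 to 1614 rose and 2551 to 2976 fell. The split between rises and falls depended on scaling: with each array centred on the median of its tested genes, 58.5% of the calls were rises. Among genes that changed at least 2-fold, 28 rose (0.254%) and 553 fell (5.02%). The median difference over all tested genes was 0.05, and the median SE was 0.11. All 3 EBSS arrays lay above all 3 mock arrays for 2549 genes (23.1%) and below them for 2507 genes (22.7%).

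The differences were compared between the 3 pairs. Of the 11026 tested genes, 4216 were higher and 3891 lower in EBSS in every pair. Across genes, which are not independent replicates, the pair differences correlated with r = 0.84 (siRelB with siRelA), 0.83 (siRelA with siCtrl) and 0.85 (siRelB with siCtrl), and these pairs share no array. In all 3 pairs, 104 genes were at least 1.5-fold higher (0.943%) and 1063 at least 1.5-fold lower (9.64%). Every one of them also passed the test, but the test uses the same 3 differences and so adds no separate support. At 2-fold in every pair the counts were 8 higher and 319 lower. The siRelA pair had 53 genes at least 2-fold higher and 662 at least 2-fold lower, the siRelB pair 23 and 537, and the siCtrl pair 62 and 574.

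**Figure D1:**
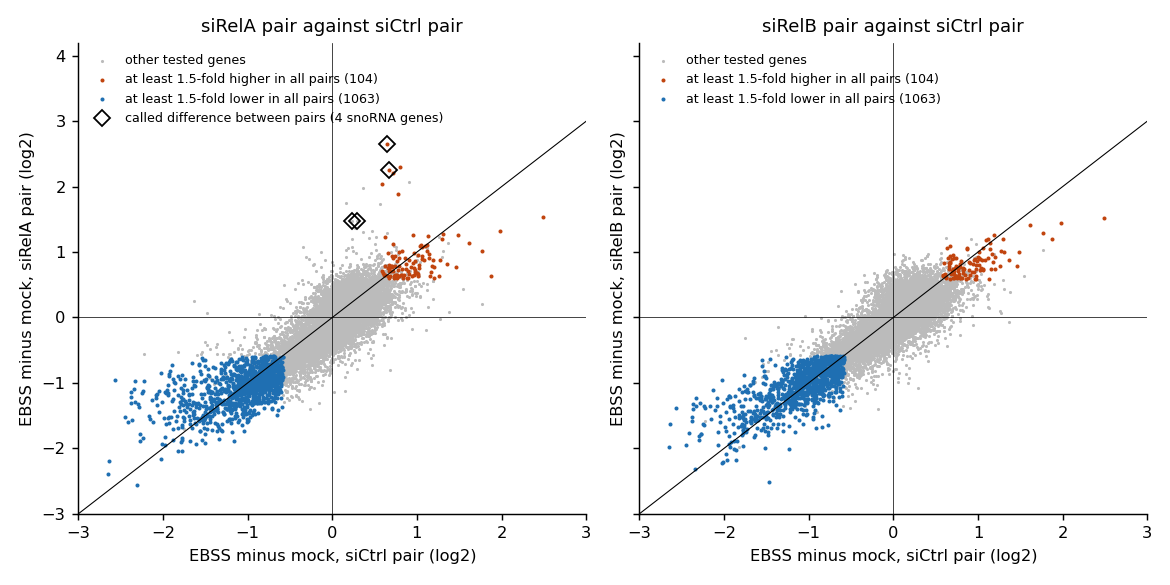
EBSS minus mock difference (log2) of each tested gene in the siRelA pair (left) and the siRelB pair (right), plotted against its difference in the siCtrl pair; the diagonal marks equal differences. Orange and blue points are the 104 genes at least 1.5-fold higher and the 1063 genes at least 1.5-fold lower in every pair. Diamonds mark 4 small nucleolar RNA genes, among them the pseudogene SNORD13P3, with a larger difference in the siRelA pair.

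The largest rise was that of DDIT3, the stress transcription factor also called CHOP, on chromosome 12. Its levels were 7.91, 7.98 and 8.96 in EBSS, against 6.37, 6.45 and 6.47 in mock. The groups did not overlap, and the siCtrl cells in EBSS stood highest. The difference was 1.85 ± 0.16 (SE, n = 3 pairs; 3.6-fold higher, adjusted p = 1.53e-08). EGR1, a zinc finger transcription factor of the immediate early class, had 9.63, 9.29 and 9.86 in EBSS, against 8.31, 7.85 and 7.88 in mock, which gave 1.58 ± 0.16 (adjusted p = 1.49e-07). Every EBSS array was above every mock array. TRIB3, a pseudokinase that is a target of ATF4 and CHOP, had 8.18, 8.02 and 8.51 in EBSS, against 7.16, 6.74 and 6.75 in mock and rose by 1.36 ± 0.13 (adjusted p = 1.03e-07). CHAC1, an enzyme that breaks down glutathione, had 7.23, 7.72 and 8.77 in EBSS, against 6.60, 6.53 and 6.90 in mock. Its groups did not overlap either, but its pairs were uneven: the rise was 0.64 in siRelA cells, 1.19 in siRelB cells and 1.87 in siCtrl cells, with a fitted 1.23 ± 0.15.

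The other named rises were LIF, a cytokine of the interleukin-6 family, at 1.23 ± 0.12, ABTB1, a protein with ankyrin repeats and BTB domains, at 1.25 ± 0.12, and UBALD2 at 1.38 ± 0.13. LIF had 7.96, 8.22 and 8.72 in EBSS, against 6.75, 7.02 and 7.42 in mock, and for all 3 genes the EBSS arrays lay above the mock arrays. The 10 largest rises also held small nucleolar RNAs, which guide chemical modification of ribosomal RNA: SNORD13 (1.26 ± 0.19), SNORD41 (1.32 ± 0.19) and the pseudogene SNORD13P3 (1.40 ± 0.23). SNORD13 and SNORD13P3 are near-identical copies, so their probes may read the same RNA. These 3 values leaned on the siRelA pair, and without it they were 0.75, 0.84 and 0.78 (adjusted p = 0.000131, 0.000238 and 0.000132).

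**Figure D2:**
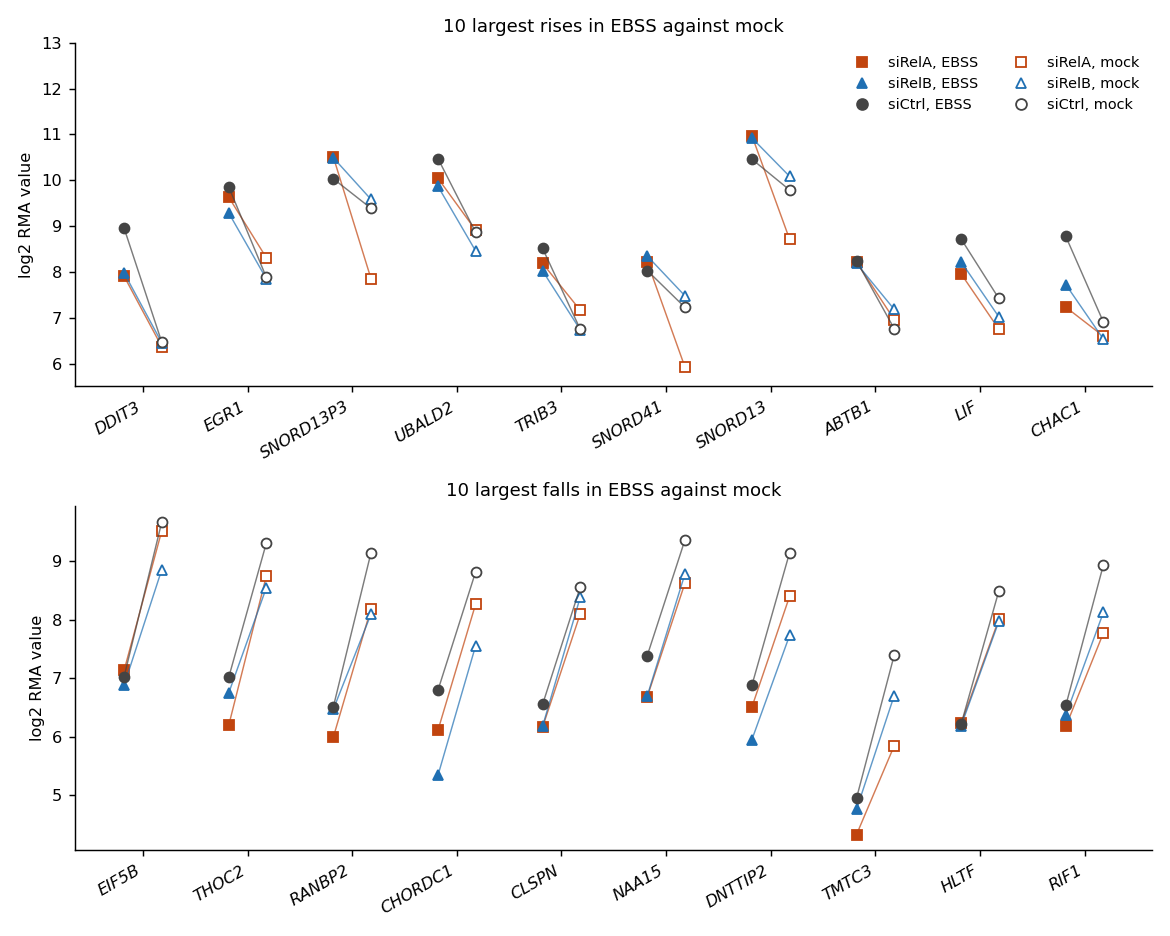
Log2 level on each array of the 10 genes that rose most (top) and the 10 that fell most (bottom), with EBSS (filled symbols) left of mock (open symbols) and lines joining arrays of the same siRNA. DDIT3 lay at 7.91 or above in EBSS and at 6.47 or below in mock, and EIF5B lay at 7.13 or below in EBSS and at 8.86 or above in mock.

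Promoters of the 4 leading protein-coding stress and immediate early genes (DDIT3, EGR1, TRIB3 and CHAC1) were searched on both strands, from 250 bases before to 50 bases after the gene start, for the element that C/EBP and ATF4 dimers bind (TGATGNAA) and for the CArG box, the site of serum response factor. CHAC1 and EGR1 are printed because they held a match, with the match in capitals (RefSeq, GRCh38.p14). The CHAC1 window is chr15:40953221-40953520 on the plus strand, with a C/EBP-ATF match starting at position -209 from the gene start. The EGR1 window is chr5:138465229-138465528 on the plus strand, with CArG boxes starting at -105 and -83.
CHAC1: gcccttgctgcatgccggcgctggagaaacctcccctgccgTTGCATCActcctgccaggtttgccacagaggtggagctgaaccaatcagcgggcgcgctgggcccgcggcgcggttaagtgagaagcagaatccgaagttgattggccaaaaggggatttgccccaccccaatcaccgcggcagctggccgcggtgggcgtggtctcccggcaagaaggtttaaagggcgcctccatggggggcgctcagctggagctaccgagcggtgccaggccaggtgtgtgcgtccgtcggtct
EGR1: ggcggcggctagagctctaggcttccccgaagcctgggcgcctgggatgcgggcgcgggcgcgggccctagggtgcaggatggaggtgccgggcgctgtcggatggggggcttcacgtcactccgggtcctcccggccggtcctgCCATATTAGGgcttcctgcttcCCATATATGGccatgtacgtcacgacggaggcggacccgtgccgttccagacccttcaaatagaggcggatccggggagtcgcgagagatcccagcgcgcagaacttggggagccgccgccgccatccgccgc
The DDIT3 and TRIB3 windows held neither motif, which says only that these letters are not in these windows. The C/EBP-ATF element was in 3.95% of the 76 promoters found for genes at least 1.5-fold higher in all pairs, in 2.26% of the 928 found for genes at least 1.5-fold lower, in 1.53% of the 8849 of tested genes and in 3.67% of all 27305 promoters. The CArG box was in 2.63%, 0.539%, 1.06% and 1.29% of the same sets. The NF-kB consensus was in 14.5%, 11.9%, 13.4% and 10.8% of the same sets, the AP-1 element (TGANTCA) in 3.95%, 2.8%, 4.09% and 7.76%, and the cAMP response element (TGACGTCA) in 3.95%, 4.2%, 3.38% and 1.98%. Of these 3, the printed genes held none, and DDIT3 held an AP-1 match at -241. A match is a run of letters and not a measured binding site.

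Most genes of the amino acid response rose. Of 24 tested members of the ATF4 list, 17 rose and 1 fell, and the median difference was 0.42, against 0.05 over all tested genes. Over all tested genes 22.6% rose and 29.3% fell, which is the background for this and every later list count. After DDIT3, TRIB3 and CHAC1 came PPP1R15A, the phosphatase subunit that reverses translational arrest, at 1.01 ± 0.14 and SESN2, a leucine sensor that restrains mTORC1, at 1.0 ± 0.18. ATF4 itself, which is controlled mainly at translation, rose by 0.38 ± 0.10 (adjusted p = 0.00368), or 0.20 (adjusted p = 0.098) after removal of a trend on genomic span described below. The synthesis genes were mixed. ASNS, which makes asparagine, rose by 0.45 ± 0.08, and PHGDH, the first enzyme of serine synthesis, rose by 0.62 ± 0.09. PSAT1, the next enzyme of that route, had a difference of -0.13 ± 0.10 (adjusted p = 0.285). The single fall was ALDH18A1, of proline synthesis, at -0.22 ± 0.08, and it did not pass without any 1 of the 3 pairs (adjusted p = 0.0675 to 0.104) and became 0.01 after the span trend was removed.

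Amino acid transporters split by member. Of 15 tested, 7 rose and 6 fell, beside 22.6% rises and 29.3% falls over all tested genes. Their median was 0.24. After median centring there were 9 rises and 4 falls, and 9 and 2 after the span trend was removed. SLC43A1, a carrier of large neutral amino acids, had 8.22, 7.92 and 8.16 in EBSS, against 7.34, 6.90 and 6.89 in mock without overlap and rose by 1.06 ± 0.11 (adjusted p = 1.11e-07). SLC1A4, a carrier of alanine, serine and cysteine, rose by 0.68 ± 0.14, and SLC3A2, the heavy chain of several exchangers, rose by 0.41 ± 0.08. The glutamine carrier SLC38A1 had 9.04, 9.33 and 9.84 in EBSS, against 9.70, 9.75 and 10.23 in mock and fell in every pair (-0.48 ± 0.08, adjusted p = 7.61e-05), although its groups overlapped between pairs. After the span trend was removed it was -0.17 (adjusted p = 0.0733). The lysosomal carrier SLC36A4 fell by 0.54 on the log2 scale. SLC7A11, the cystine and glutamate exchanger, had 5.10, 5.52 and 6.27 in EBSS, against 5.88, 5.77 and 6.31 in mock, a difference of -0.36 ± 0.14 (adjusted p = 0.0371). This call was lost without the siRelA pair (-0.14, adjusted p = 0.459), without the siRelB pair (-0.41, adjusted p = 0.0673) and after the span trend was removed (-0.05, adjusted p = 0.754).

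The cytosolic aminoacyl-tRNA synthetases, which load tRNAs with amino acids, fell more often than they rose: of 19 tested, 9 fell and 4 rose. With 29.3% falls and 22.6% rises over all tested genes, their share of rises was near the background. Their median of -0.17 turned to 0.02, with 6 falls and 5 rises, once a trend on gene span was removed. EPRS1, which charges glutamate and proline, had 8.56, 8.20 and 9.27 in EBSS, against 10.03, 9.43 and 10.19 in mock, with no overlap and a difference of -1.21 ± 0.12 (adjusted p = 6.41e-08). NARS1, for asparagine, followed at -0.80 ± 0.09 and TARS1, for threonine, at -0.61 ± 0.09. QARS1, for glutamine, rose by 0.35 ± 0.09, and CARS1, for cysteine, rose by 0.34 ± 0.13, a value of 0.13 (adjusted p = 0.443) without the siCtrl pair and 0.36 (adjusted p = 0.0739) without the siRelB pair. Genes that regulate mTORC1, the amino acid sensing kinase complex, gave 7 rises and 2 falls among 14 tested. SESN2 and DDIT4, both of which lower mTORC1 activity, rose by 1.0 ± 0.18 and 0.87 ± 0.15, and FLCN, part of the lysosomal amino acid sensing machinery, rose by 0.77 ± 0.10. The SESN2 and DDIT4 rises were largest in siCtrl cells, and without that pair they were 0.62 (adjusted p = 0.00545) and 0.53 (adjusted p = 0.00283).

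Immediate early genes, which cells transcribe within minutes of a signal without new protein synthesis, rose together. Of 28 tested, 24 rose and 0 fell, with a median of 0.46, and 17 had every EBSS array above every mock array. The shares over all tested genes were 22.6% rises, 29.3% falls and 23.1% with every EBSS array above every mock array. The AP-1 subunit JUNB had 8.70, 8.39 and 9.11 in EBSS, against 7.75, 7.48 and 8.09 in mock, a rise of 0.96 ± 0.12 (adjusted p = 3.16e-06). FOS, its partner, had 7.69, 7.32 and 7.36 in EBSS, against 7.01, 6.45 and 6.37 in mock and rose by 0.85 ± 0.13 (adjusted p = 1.49e-05). Neither gene's groups overlapped. CCN1, a secreted matrix protein, had 9.65, 8.84 and 9.15 in EBSS, against 9.10, 7.58 and 7.96 in mock, where the siRelA mock array was above 1 EBSS array, and rose by 1.0 ± 0.16. Other rises were IER2 at 0.77 ± 0.09, EGR3 at 0.77 ± 0.12 and MYC at 0.37 ± 0.09.

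Feedback genes of the ERK kinase pathway gave 9 rises and 1 fall among 16 tested (median 0.29). The ETS factor ETV4 rose by 0.94 ± 0.11 (adjusted p = 1.25e-06) and the phosphatases DUSP5 and DUSP6, which switch ERK off, rose by 0.55 ± 0.12 and 0.43 ± 0.12, with 0.28 (adjusted p = 0.0681) for DUSP6 after the span trend was removed. The fall, of the RAS pathway inhibitor SPRED1, was -0.27 ± 0.11 and became 0.07 after the span trend was removed and -0.15 (adjusted p = 0.339) without the siRelA pair, and it did not pass without the siCtrl pair either (adjusted p = 0.0995). Of the EGF receptor family and its ligands, 4 of 11 measured genes were bright enough to test. The ligand HBEGF rose (0.79 ± 0.15), as did the receptor ERBB2 (0.36 ± 0.10). The receptor EGFR had 8.10, 8.19 and 8.30 in EBSS, against 8.80, 8.88 and 8.97 in mock without overlap and fell (-0.69 ± 0.09, adjusted p = 3.27e-06), and the ligand EREG also fell (-0.35 ± 0.08).

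NF-kB pathway genes split between rises and falls, also within the alternative branch. NFKB2, the precursor of the p52 subunit, had 8.31, 8.41 and 8.79 in EBSS, against 7.21, 7.23 and 7.70 in mock. Its groups did not overlap, and it rose by 1.12 ± 0.11 (2.18-fold, adjusted p = 5.54e-08). RELB, the partner of p52, rose in all pairs, by 0.94 in siRelA cells, 0.57 in its own knockdown and 1.30 in siCtrl cells (fitted 0.94 ± 0.14, adjusted p = 1.66e-05). RELA rose less (0.42 ± 0.11, adjusted p = 0.00327), and without the siRNA term in the fit neither RELA (adjusted p = 0.714) nor RELB (adjusted p = 0.133) passed. MAP3K14, the kinase that starts the alternative branch, rose by 0.48 ± 0.11, and the inhibitors NFKBIB and NFKBIE rose by 0.51 ± 0.12 and 0.41 ± 0.11, the second with an adjusted p of 0.0522 without the siCtrl pair. CHUK, the kinase that acts below MAP3K14, had 6.37, 6.21 and 7.09 in EBSS, against 7.56, 7.73 and 8.25 in mock and fell without overlap (-1.29 ± 0.11, adjusted p = 2.79e-08), and the subunit gene REL fell by 0.92 on the log2 scale. NFKB1 (-0.21 ± 0.12, adjusted p = 0.142) and the inhibitor NFKBIA (-0.17 ± 0.12, adjusted p = 0.219) did not pass the test, although NFKBIA passed at -0.34 (adjusted p = 0.0196) after the span trend was removed. The 19 tested subunits, inhibitors and kinases thus held 8 rises and 4 falls, beside 22.6% rises and 29.3% falls over all tested genes. Their median of -0.03 changed sign under several alternatives, for example to 0.06 after median centring.

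Of 28 canonical NF-kB targets measured, 14 were bright enough to test, and 8 of these rose and 1 fell (median 0.50). Several classical members, among them TNF, IL6 and TNFAIP3, were too dim to be tested. IER3, a survival gene that the study silenced in other experiments, had 8.24, 7.79 and 8.57 in EBSS, against 7.54, 7.35 and 7.56 in mock. All EBSS arrays were above all mock arrays, and IER3 rose by 0.71 ± 0.12 (adjusted p = 4.13e-05), by 0.70 in siRelA cells, 0.44 in siRelB cells and 1.01 in siCtrl cells. The survival gene BCL2L1 rose by 0.75 ± 0.10, and CSF1, a macrophage growth factor, rose by 0.55 ± 0.10. The chemokine genes CXCL1 (-0.12 ± 0.14, adjusted p = 0.48) and CXCL8 (0.11 ± 0.18, adjusted p = 0.62) did not pass, although CXCL8 passed at 0.47 (adjusted p = 0.0421) without the siRelA pair. CXCL2 rose by 0.45 ± 0.12, or 0.28 (adjusted p = 0.0994) without the siCtrl pair and 0.26 (adjusted p = 0.0746) after the span trend was removed. SOD2, the mitochondrial superoxide dismutase, was the fall (-0.28 ± 0.09). It became 0.04 after the span trend was removed and did not pass without the siRelA pair (adjusted p = 0.086) or the siCtrl pair (adjusted p = 0.0979). NUPR1, the stress-induced chromatin protein of the study's title, had 6.49, 6.29 and 6.84 in EBSS, against 6.06, 5.97 and 6.30 in mock, with overlap between pairs, and rose by 0.43 ± 0.12 (adjusted p = 0.00524).

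Genes of autophagy and the lysosome, which recycle cell contents during starvation, gave 17 rises and 4 falls among 35 tested (median 0.25). SQSTM1, the cargo receptor p62, had 11.50, 11.16 and 11.56 in EBSS, against 10.22, 10.16 and 10.25 in mock. The groups were far apart, and the rise was 1.20 ± 0.08 (2.29-fold, adjusted p = 1.27e-09). ATG13 and ULK1 of the initiating kinase complex rose by 0.78 ± 0.10 and 0.51 ± 0.10, the LC3 family member MAP1LC3B by 0.57 ± 0.13 and TFE3, an activator of lysosome genes, by 0.54 ± 0.10. Paralogues could move apart: ATG2A, a lipid transfer protein, rose by 0.84 ± 0.11, while ATG2B fell (-1.02 ± 0.11). FOXO targets and growth arrest genes gave 12 rises and 2 falls among 18 tested, led by YPEL3 (1.08 ± 0.10), YPEL2 (0.91 ± 0.14) and the cyclin CCNG2 (0.72 ± 0.10). The arrestin-like gene ARRDC3, another FOXO target, fell (-1.14 ± 0.15). The p53 targets were divided, with 10 rises and 7 falls among 18 tested. The rises held the kinase PLK3 (1.03 ± 0.12) and the stress cytokine GDF15 (0.77 ± 0.12). The falls held TIGAR, a regulator of sugar metabolism (-1.40 ± 0.11). After the span trend was removed, 8 p53 targets rose and 4 fell.

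At 2-fold and over, falls outnumbered rises, and the largest falls exceeded the largest rises. EIF5B, which joins the ribosomal subunits at the start codon, fell most. It had 7.13, 6.88 and 7.02 in EBSS, against 9.52, 8.86 and 9.67 in mock. The groups did not overlap, and the difference was -2.34 ± 0.13 (5.06-fold lower, adjusted p = 6.83e-10). THOC2, of the THO complex for mRNA export, had 6.19, 6.74 and 7.01 in EBSS, against 8.75, 8.55 and 9.31 in mock and fell by 2.22 on the log2 scale. RANBP2, a nuclear pore protein, had 5.99, 6.47 and 6.51 in EBSS, against 8.19, 8.10 and 9.15 in mock and fell by 2.16. Both genes were lower on every EBSS array than on any mock array. CHORDC1, a co-chaperone of HSP90, had 6.11, 5.34 and 6.79 in EBSS, against 8.27, 7.56 and 8.82 in mock and fell by 2.14 (4.39-fold). NAA15, a subunit of the enzyme that acetylates nascent proteins, fell by 2.00 with the smallest adjusted p of the 20 genes named for size (adjusted p = 3.14e-10). The other large falls were CLSPN, which relays replication stress to CHK1 (-2.05 ± 0.12), DNTTIP2, a nucleolar ribosome assembly protein (-1.98 ± 0.14), TMTC3, a mannosyltransferase (-1.97 ± 0.18), HLTF, a remodeller of stalled forks (-1.95 ± 0.15), and RIF1, a regulator of replication timing and break repair (-1.93 ± 0.14), and none of these 6 genes had overlapping groups.

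The cohesin and condensin list and the mitotic list had the lowest medians of the 34 lists, and replication and repair lists also held mostly falls. Among cohesin, condensin and related SMC complexes, which loop and compact chromosomes, 20 of 24 tested members fell and 2 rose, with a median of -1.08. The condensin core gene SMC4 had 7.29, 6.94 and 7.67 in EBSS, against 9.12, 8.59 and 9.91 in mock without overlap and fell by 1.91 on the log2 scale (adjusted p = 1.96e-09). SMC2, its partner, was at -1.92 ± 0.21, and SMC5 and SMC6 of the repair complex were at -1.70 ± 0.16 and -1.66 ± 0.19. The condensin II subunit NCAPH2 and the cohesin loader MAU2 were the rises, each by 0.30, and without single pairs neither call held (adjusted p = 0.121 and 0.157 for NCAPH2 without the siCtrl and the siRelA pair, 0.0857 and 0.218 for MAU2 without the siCtrl and the siRelB pair). Of 36 tested genes for centrosomes, kinetochores and mitotic motors, 31 fell and 0 rose (median -0.95), led by ANLN, a scaffold of the dividing furrow (-1.74 ± 0.11), the kinetochore genes KNL1 (-1.73 ± 0.16) and CENPF (-1.63 ± 0.17) and the spindle motor KIF11 (-1.63 ± 0.12). DNA replication and checkpoint genes gave 37 falls and 3 rises among 50 tested (median -0.57). CDC6, which loads the replicative helicase, had 8.18, 8.5 and 8.47 in EBSS, against 9.80, 9.97 and 10.00 in mock and fell by 1.53 (adjusted p = 9.72e-10), while CDT1, its partner in loading, rose by 0.45 ± 0.11. DNA repair genes and the large PI3K-like kinases gave 22 falls and 1 rise among 30, with the break sensor RAD50 at -1.78 ± 0.17 and the checkpoint kinases ATR and ATM at -1.72 ± 0.12 and -1.50 ± 0.13.

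Lists of chromatin, RNA processing, nuclear export and translation initiation genes also held more falls than rises. Of 45 chromatin remodelers and histone modifiers, 34 fell and 0 rose (median -0.80), with CHD1, a nucleosome remodeller, at -1.83 ± 0.15 and BAZ1A, a remodeller subunit, at -1.79 ± 0.11. Splicing and RNA helicase factors gave 27 falls and 2 rises among 37 (median -0.57). The splicing factor SRSF7 had 8.20, 7.85 and 8.59 in EBSS, against 9.66, 9.34 and 9.63 in mock without overlap and fell by 1.33, while SNRPA, a protein of the U1 particle, rose by 0.50 ± 0.10. Nuclear pore and export genes gave 21 falls and 3 rises among 36 (median -0.42), with the basket protein TPR at -1.71 ± 0.13 and the export receptor XPO1 at -1.23 ± 0.09. Translation initiation factors gave 21 falls and 5 rises among 36 (median -0.25), with EIF3A, the largest subunit of eIF3, at -1.18 ± 0.09 and EIF6, which keeps free large ribosomal subunits apart, at 0.50 ± 0.09. Among cytosolic ribosomal proteins 14 of 41 rose and 1 fell, and their median of 0.13 became -0.03, with 2 rises and 5 falls, after the span trend was removed. With median centring 30 rose and 0 fell.

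Lists of protein folding, turnover, trafficking and lipid synthesis genes held more falls than rises, to different degrees. The background was 29.3% falls and 22.6% rises over all tested genes. Heat shock proteins and co-chaperones gave 29 falls and 2 rises among 36 tested (median -0.51). HSPH1, a nucleotide exchange factor of HSP70, had 8.68, 8.74 and 9.17 in EBSS, against 10.45, 10.20 and 10.68 in mock without overlap and fell by 1.58 (adjusted p = 9.72e-10), while HSF1, the factor that activates heat shock genes, rose by 0.29 ± 0.10, a call lost without the siRelB pair (adjusted p = 0.079) or the siCtrl pair (adjusted p = 0.167). In the endoplasmic reticulum, 11 of 27 chaperone and unfolded protein response genes fell and 3 rose (median -0.15), with the chaperone HSP90B1 at -1.0 ± 0.09 and HERPUD1, of protein degradation, at 0.46 ± 0.11, or 0.27 (adjusted p = 0.0631) without the siCtrl pair. Large ubiquitin ligases and their partners gave 25 falls and 1 rise among 31 (median -0.78), with the deubiquitinase USP34 at -1.57 ± 0.10 and the scaffold CUL5 at -1.62 ± 0.15. Golgins and vesicle tethers gave 21 falls and 1 rise among 31 (median -0.57), with the exocyst gene EXOC5 at -1.72 ± 0.14. Proteasome subunits gave 12 falls and 0 rises among 29, but with a median of only -0.12. Cholesterol and fatty acid synthesis genes gave 12 falls and 1 rise among 20 (median -0.28), led by the sterol enzymes MSMO1 (-1.56 ± 0.11) and HMGCS1 (-1.25 ± 0.11).

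**Figure D3:**
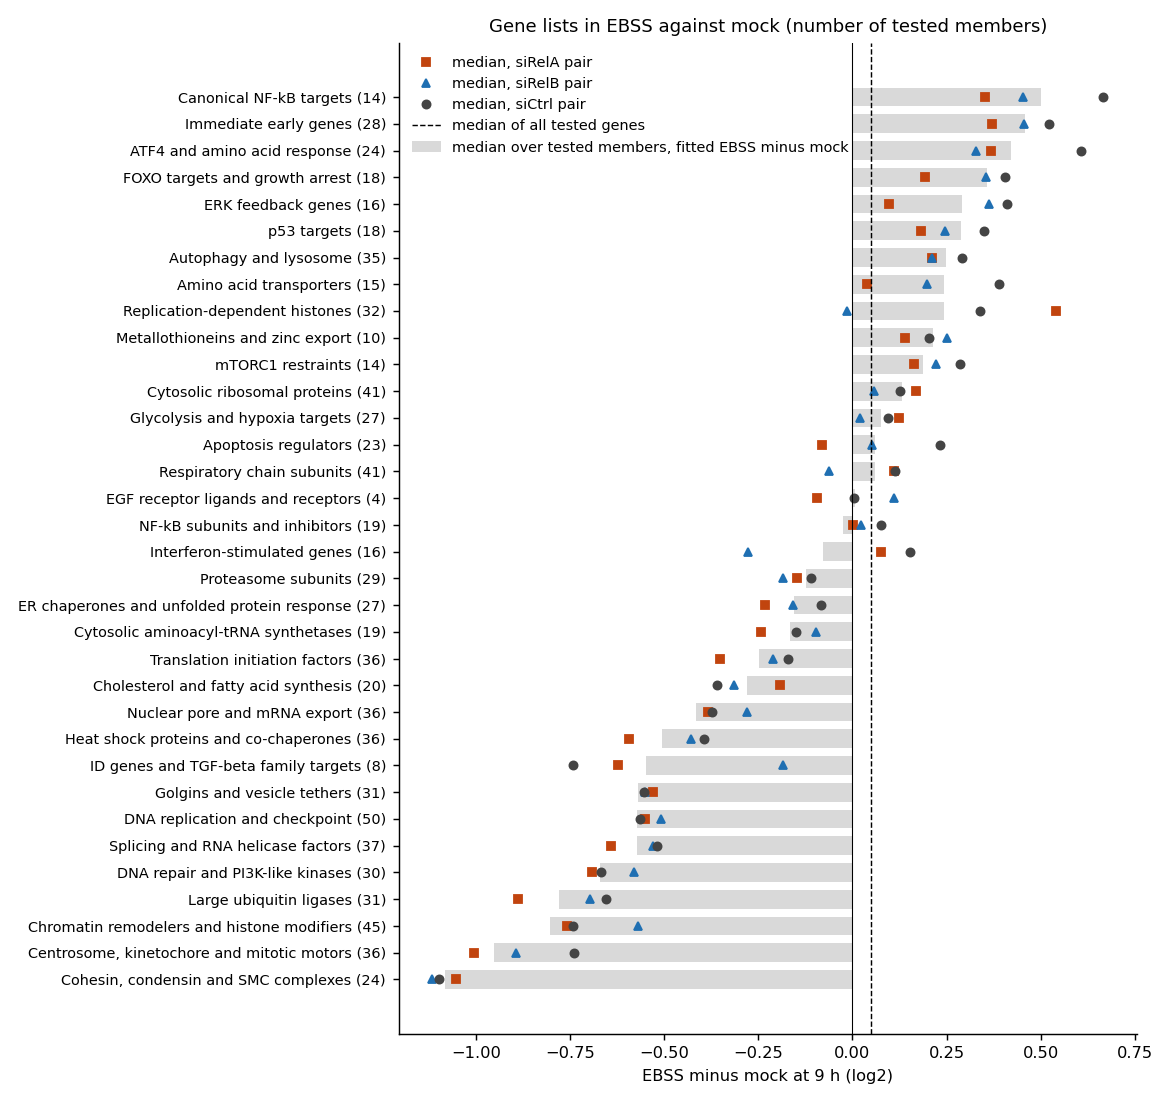
Median EBSS minus mock difference (log2) over the tested members of each gene list (grey bars), with the medians in the siRelA, siRelB and siCtrl pairs as points and the median of all tested genes, 0.05, as a dashed line. Lists of chromosome, mitotic and chromatin genes lie lowest, down to -1.08, and NF-kB target, immediate early and ATF4 lists lie highest; the medians of NF-kB subunits, interferon-stimulated genes, tRNA synthetases, ribosomal proteins and respiratory chain subunits changed sign under at least 1 other scaling or trend removal.

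Genes that cover long stretches of the genome fell more often than short ones. Across 11019 genes the EBSS minus mock difference and the genomic span had a rank correlation of -0.42, given as a description because genes are not independent replicates. In the pairs it was -0.45 (siRelA), -0.36 (siRelB) and -0.38 (siCtrl). Among the 1101 genes with the shortest span, up to 3.50 kb, the median difference was 0.23, and 42.1% rose and 6.09% fell. Among the 1102 with the longest span, from 129 kb, the median was -0.25, and 7.62% rose and 50% fell. The median span was 12.9 kb for genes at least 1.5-fold higher in all pairs, 62.5 kb for genes at least 1.5-fold lower and 22.1 kb for the rest. Level had a weaker relation with the difference (rank correlation -0.07). Of the 553 genes at least 2-fold lower, all 553 were still called after the span trend was removed from each array, and 287 were still at least 2-fold lower. The list medians moved to -0.83 for cohesin and condensin genes, -0.68 for mitotic genes, -0.48 for chromatin genes, -0.44 for large ubiquitin ligases, -0.40 for DNA repair genes, -0.28 for golgins and vesicle tethers (16 falls), -0.23 for nuclear pore and export genes (17 falls and 6 rises) and -0.16 for translation initiation factors, and to 0.44 for the ATF4 list and 0.39 for immediate early genes.

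**Figure D4:**
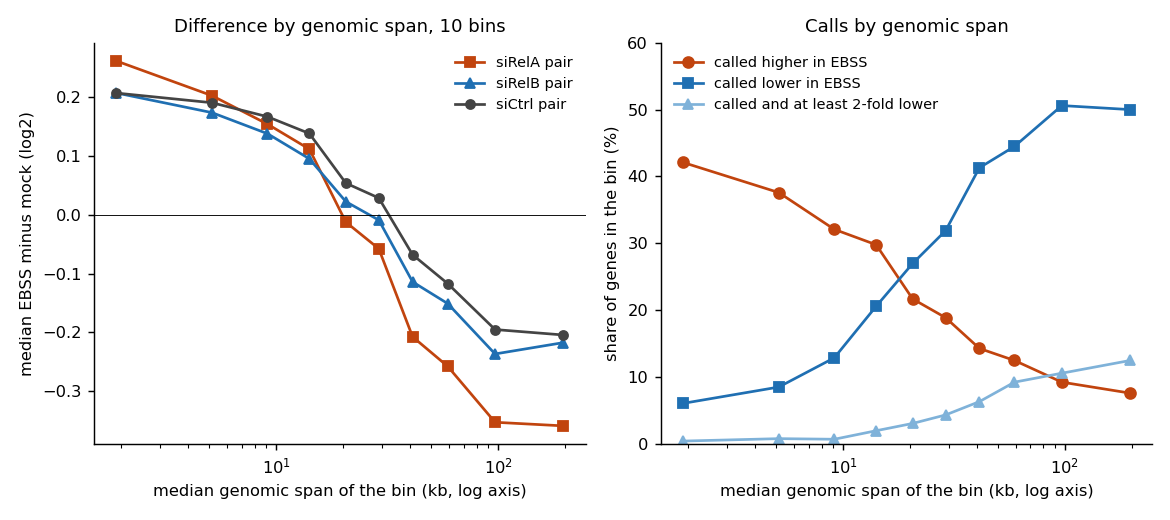
Left, median EBSS minus mock difference (log2) of tested genes in 10 bins of equal size by genomic span (kb, log axis) for the siRelA, siRelB and siCtrl pairs; right, share of each bin (%) called higher, lower, or at least 2-fold lower in EBSS. The share called lower goes from 6.09% in the bin of shortest genes to 50% in the bin of longest genes, and the share called higher from 42.1% to 7.62%.

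Replication-dependent histone genes, which are short and lack introns, gave 12 rises and 0 falls among 32 tested (median 0.24). After the span trend was removed there were 2 rises with a median of 0.02. The pairs were uneven, with list medians of 0.54 (siRelA), -0.01 (siRelB) and 0.34 (siCtrl). The calls of H2BC13 and H2BC5 were lost without the siCtrl pair (adjusted p = 0.0583 and 0.0791) and without the siRelA pair (0.0953 and 0.107). H3C10 had 8.27, 8.75 and 8.80 in EBSS, against 7.64, 8.16 and 8.14 in mock without overlap and rose by 0.62 ± 0.10. Metallothioneins and zinc exporters gave 6 rises and 2 falls among 10, and no rises after the span trend was removed. The falls were the zinc sensor MTF1 (-0.89 ± 0.11) and the zinc exporter SLC30A1, which had 7.57, 7.08 and 7.22 in EBSS, against 8.17, 7.76 and 8.04 in mock without overlap and was at -0.70 ± 0.09. Short genes could also fall. The inhibitors of differentiation ID1, ID2 and ID3, which are targets of BMP signalling, fell by 1.08, 1.26 and 1.43 on the log2 scale, and ID3 had 7.95, 7.30 and 7.24 in EBSS, against 9.30, 8.74 and 8.73 in mock. The ID2 fall was uneven between pairs and smaller in siRelB than in siCtrl cells. It was -1.73 to -1.01 when an array or pair was left out. None of the ID genes had overlapping groups, and BAMBI, a decoy receptor of the same pathway, fell too (-1.18 ± 0.14). Of the 8 tested ID genes and TGF-beta family targets, these 4 fell and 2 rose, TGIF1 and PMEPA1. When an array or pair was left out, TGIF1 was at 0.32 to 0.58 and PMEPA1 at 0.23 to 0.41. The PMEPA1 call was lost without the siRelA pair (0.23, adjusted p = 0.203). Among 16 tested interferon-stimulated genes 6 fell and 5 rose, beside 29.3% falls and 22.6% rises over all tested genes, and 5 fell and 2 rose after the span trend was removed. The antiviral gene IFIT1 fell (-1.18 ± 0.15) and OASL rose (0.53 ± 0.13).

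The dependence of the EBSS difference on the silenced NF-kB subunit was tested next. Each combination of siRNA and medium was 1 array, so this fit took its spread from the Nupr1 set alone (3 residual degrees of freedom). For siRelA, 4 genes passed (0.0363%), all with a larger rise in siRelA than in siCtrl cells. They were small nucleolar RNA genes, among them the pseudogene SNORD13P3, whose probes may read the same RNA as those of SNORD13. Of the 11026 tested genes, 572 had an unadjusted p under 0.05. Without any difference, a share of 0.05 of the tested genes is expected there, so this count is not read as a result. SNORD33 had 12, 12.45 and 12.09 in EBSS, against 10.53, 12.06 and 11.86 in mock. The siRelA mock array stood apart at 10.53, and the difference of the EBSS differences, siRelA minus siCtrl, was 1.23 ± 0.13 (adjusted p = 0.000142). SNORD13P3, SNORD13 and SNORD57 followed at 2.01 ± 0.26, 1.59 ± 0.25 and 1.19 ± 0.19, and each was lowest on that same array. Of 137 tested small RNA genes, 22 were at least 2-fold higher in EBSS in the siRelA pair, against 0 in the siRelB pair and 2 in the siCtrl pair. With the spread of the fit without interaction terms, no gene passed. That spread holds the difference between pairs itself, so it is wider for a gene whose pairs differ.

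For siRelB, no gene passed (0%, smallest adjusted p = 0.703, limma), and 401 of 11026 had an unadjusted p under 0.05. As for siRelA, a share of 0.05 is expected there without any difference, and the count is not read as a result. The genes with the smallest p among lower responses in siRelA cells included 3 ATF4 targets, none of which passed. The EBSS difference of SESN2 was 0.21 in siRelA cells and 1.76 in siCtrl cells, a gap of -1.55 ± 0.29 (adjusted p = 0.06). CTH, of the pathway that makes cysteine, had -1.30 ± 0.26 (adjusted p = 0.105), and CHAC1 had -1.24 ± 0.27 (adjusted p = 0.138). In siRelB cells the same differences against siCtrl cells were -0.74, -0.77 and -0.68. The ATF4 list had medians of 0.37 in the siRelA pair, 0.33 in the siRelB pair and 0.61 in the siCtrl pair. With 1 array for each combination, these differences could not be told from the spread between arrays at the threshold used.

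The Nupr1 set gave a separate comparison on other arrays, EBSS at 9 h against 0 h over siNupr1 and siCtrl cells. The title of its siNupr1 array at 9 h names another siRNA than the source label, by which the array was used as siNupr1. There, 1013 of the same genes rose (9.19%) and 1662 fell (15.1%). Over 11026 genes the differences of the sets correlated with r = 0.39, with genes again not independent. Of the 2489 genes that rose against mock, 423 also rose in the Nupr1 set, which is 17% of the one list and 41.8% of the other. Of the 3233 that fell, 1020 also fell there, which is 31.5% and 61.4%. Of the 28 genes at least 2-fold higher against mock, 26 were called higher there, but of the 553 at least 2-fold lower, 185 were called lower and 27 higher. The relation with genomic span was near 0 in the Nupr1 set (rank correlation -0.02). The sets differ in control (mock at 9 h or 0 h) and in the arrays' set, and these cannot be told apart. They also differ in the silenced genes, RELA and RELB against NUPR1.

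The test of the difference between the sets called 894 genes higher against mock than in the Nupr1 set (8.11%) and 1804 lower (16.4%). SLC7A11 had the smallest p: its difference was -0.36 ± 0.14 against mock and 3.39 in the Nupr1 set, a gap of -3.74 ± 0.22 (adjusted p = 3.19e-09). SLC38A1 was at -0.48 and 1.22 in the same order, and the zinc exporter SLC30A1 at -0.70 and 1.19. USP34 and PCF11, a factor of transcript cleavage, were at -1.57 and -1.51 against mock and at 0.55 and 0.53 in the Nupr1 set. The ATF4 list had a median of 0.42 against mock and 1.12 in the Nupr1 set, where 22 of 24 members rose. Replication genes fell in both, with medians of -0.57 and -0.78, and the helicase loader ORC1 fell less against mock (-0.77) than in the Nupr1 set (-1.97).

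**Figure D5:**
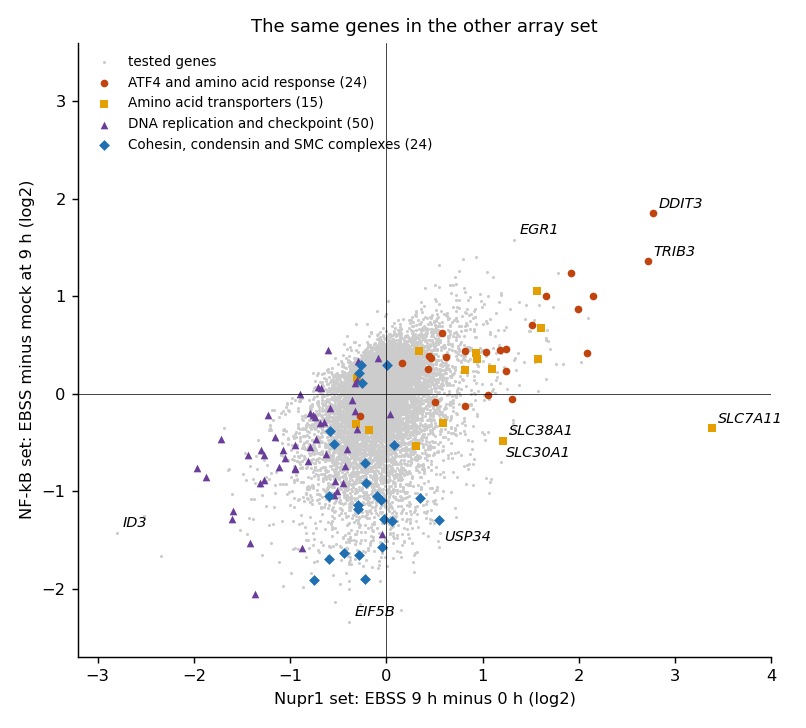
EBSS minus mock at 9 h in the NF-kB set (vertical axis, log2) against EBSS at 9 h minus 0 h in the Nupr1 set (horizontal axis, log2) for 11026 tested genes, with 4 gene lists coloured. Of 24 ATF4 genes, 17 rose on the vertical axis and 22 on the horizontal one, SLC7A11 lies at -0.36 and 3.39, and most cohesin and condensin genes lie below 0 on the vertical axis and near 0 on the horizontal one.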

How the data were processed

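RNA of MiaPaCa2 cells was read on 14 Affymetrix whole-transcript arrays, 6 of them in the comparison. The authors deposited log2 values per transcript cluster, made by robust multi-array average (RMA: background correction, quantile normalization and probe summary), per the submitters' processing notes, which also name limma. RMA quantile normalization forces arrays to like distributions, so differences are relative to the other genes. The genome build is not given in the sources used here.

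Of 28869 clusters, 19310 had 1 gene symbol, 1752 several and 7807 were not listed in the platform annotation. Matching by Entrez identifier gave 18377 current symbols, and a gene with several clusters (685 genes) was read from the brightest. The 40% of genes with the lowest mean (level 5.805) were left out, which left 11026. A linear model of set, siRNA within set, medium and time was fitted to all arrays with R 4.3.3 and limma 3.58.1 (lmFit, eBayes with an intensity trend; 5 residual and 19.6 total degrees of freedom), two-sided, with Benjamini-Hochberg adjustment over all tested genes and a threshold of 0.05. The siRNA term pairs EBSS with mock, since the labels give 1 array for each siRNA and medium. Differences that depend on the siRNA came from added interaction terms, and the set difference from a contrast. The fit was tested on simulated data. Genomic spans, chromosomes and promoters came from RefSeq tables of GRCh38.p14. The number of arrays limits the precision.

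Named are NUPR1, RELA, RELB and IER3, the 10 largest rises and falls with 1 sign in all pairs, up to 4 called members of a list and up to 2 called the other way, and up to 5 genes in each direction for each interaction and for the contrast. A further 21 list members were named for their role after their values were seen. Members, lists and tests were chosen with earlier results of these data known. Alternatives were the 6 arrays alone, no siRNA term, quantile normalization, median centring, no filter, a filter on the 6 arrays, mean clusters, no intensity trend, array weights, span trend removal, and leaving out arrays and pairs.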

Additional observations from a re-analysis of the deposited data

Results flagged for a closer look

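For 4 small nucleolar RNA genes the EBSS minus mock difference was larger in siRelA than in siCtrl cells, by a test of that difference. The gaps on the log2 scale were 2.01 for the pseudogene SNORD13P3, 1.59 for SNORD13, 1.23 for SNORD33 and 1.19 for SNORD57. Probes of SNORD13P3 and SNORD13 may read the same RNA. SNORD50A, the next gene, had 1.59 and an adjusted p of 0.0515. All 5 were lowest on the siRelA mock array. The 4 calls were lost when the spread came from the fit without interaction terms, a spread that holds these differences themselves. The cause of the differences was not tested.

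The difference between the sets, EBSS against mock minus EBSS at 9 h against 0 h, was tested in 1 contrast, and the 5 genes with the smallest p in each direction are listed here. It was higher for ID3 (1.37), TUBA3FP (1.34), ORC1 (1.2), MAGED1 (1.02) and MCM2 (1.01). For all 5 the fall against mock was smaller than the fall in the Nupr1 set, where values lay between -2.80 (ID3) and -1.19 (MAGED1), and MAGED1 did not pass the test against mock (-0.17 ± 0.09, adjusted p = 0.114). The falls of MCM2 (-0.22) and TUBA3FP (-0.35) against mock passed, but without single pairs MCM2 had adjusted p = 0.0977 to 0.159, and TUBA3FP had 0.0966 without the siCtrl pair and 0.136 without the siRelB pair. The difference between the sets was lower for SLC7A11 (-3.74), USP34 (-2.12), PCF11 (-2.05), SLC30A1 (-1.89) and SLC38A1 (-1.7). All 5 of these fell against mock and rose in the Nupr1 set, but the fall of SLC7A11 against mock was -0.14 (adjusted p = 0.459) without the siRelA pair, and after a trend on genomic span was removed that of SLC38A1 was -0.17 (adjusted p = 0.0733) and that of SLC7A11 -0.05 (adjusted p = 0.754). The 2 sets differ in the control condition and in the arrays' set, and these cannot be told apart. They also differ in the silenced genes.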

How the results depend on the processing

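Of 218 genes picked by the naming rule or for their role, 128 kept their call under every alternative run. Direction was required only of genes that passed in the main fit. Genes that did not pass could change sign, for example PSAT1, which was at 0.04 without the siRelA pair. The siRNA term acts as the replicate block: in the 6 arrays alone with no replicate block, 682 genes rose and 1664 fell (29.1% rises), and 86 of the 218 genes lost their call. Leaving out 1 array or 1 pair gave 1514 to 1614 rises, 2551 to 2976 falls and 35.1% to 37.4% rises, with fewer arrays behind the values. It also gave 23 to 36 genes at least 2-fold higher and 534 to 577 lower. Median centring gave 3946 rises (58.5% of calls) and 184 genes at least 1.5-fold higher in all pairs. Removing the span trend gave 53.6% rises, 301 genes at least 2-fold lower, and 193 higher and 678 lower by at least 1.5-fold in all pairs. Removing a trend on level, added after seeing the data, gave 3752 rises (57.4%) and 174 genes at least 1.5-fold higher in all pairs. The siRelA interaction calls went from 4 to 0 with the spread of the fit without interaction terms, which holds the differences between pairs themselves. They went to 1 with small RNA genes left out, also added after seeing the data. Signs turned after span trend removal for ALDH18A1 (0.01), SOD2 (0.04), SPRED1 (0.07) and the medians of tRNA synthetases (0.02), ribosomal proteins (-0.03) and respiratory chain subunits (-0.04). The median of NF-kB subunits and inhibitors turned to 0.03 with quantile normalization, 0.06 with centring, 0.06 with no filter, 0.21 without the span trend, 0.05 without the level trend and was -0.08 to 0.05 when an array or pair was left out. That of ID and TGF-beta genes turned to 0.01 with no filter. Except for the trend removals and the smaller fits, whose construction differs as named, the cause was not tested. Each siRNA and medium had 1 array, so the interaction tests assume that these arrays vary like the Nupr1 set, and dim genes carry only a bound.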

Other observations

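Shares of rises and falls differed in value between RNA classes, with no test made. Of 86 tested small nucleolar RNA genes 54.7% rose and 12.8% fell, with medians of 0.43 in the siRelA pair, 0.29 in the siRelB pair and 0.27 in the siCtrl pair. Small RNA genes were lowest on the siRelA array in both media, and the part of these arrays in the values was not tested. Of 15 small nuclear RNA genes, which serve mainly in splicing, 73.3% rose and none fell (median 0.51). Of 180 long non-coding RNA genes 33.9% rose and 5.00% fell (median 0.22), and of 10499 protein-coding genes 21.8% rose and 30.4% fell (median 0.03). Of 25 pseudogenes 24% rose and 20% fell (median -0.02). The first 4 classes had median genomic spans of 0.095 kb, 0.141 kb, 6.54 kb and 26.4 kb in the same order.

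Over all tested genes 22.6% rose and 29.3% fell, which is the background for the counts below. Glycolysis and hypoxia genes gave 6 rises and 3 falls among 27 tested, and 11 rises after the span trend was removed. NDRG1, a stress-responsive gene, rose by 1.11 ± 0.11 and the glucose carrier SLC2A3 by 0.86 ± 0.11, while the hexokinase HK2 fell (-0.45 ± 0.09), a call lost after the span trend was removed (-0.19, adjusted p = 0.0721). Apoptosis regulators gave 7 rises and 4 falls among 23, and the falls held the caspase inhibitor XIAP (-1.0 ± 0.15) beside APAF1 (-0.74 ± 0.10) and CYCS (-0.61 ± 0.11), which build the apoptosome. Respiratory chain subunits gave 3 rises and 5 falls among 41, but 10 rises and 4 falls with quantile normalization and 16 and 3 with median centring, and the complex I gene NDUFA5 fell (-1.17 ± 0.17).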
